A study of Homo sapiens with 6 samples.

Results

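Loci were examined at which the summit of open chromatin lay at one position in the shLUC libraries and at another position, more than 250 and at most 1000 bp away, in the shHNRNPU libraries. Summits of the 6 libraries were pooled into 123131 consensus loci, taking the summit with the highest score percentile within its own list first and absorbing every summit within 250 bp of it. A locus was kept if every library of one group, and no library of the other, had a summit at its centre to within 250 bp, and if the other group had its nearest summit beyond that distance but no farther than 1000 bp. This stretch on either side of a centre is called the shift window. This rule kept 857 loci. Of these, 497 were shLUC-side loci, held by both shLUC libraries, and 360 were shHNRNPU-side loci, held by all 4 shHNRNPU libraries. They made up 1.19% of the 41784 loci held by both shLUC libraries and 1.19% of the 30207 loci held by all 4 shHNRNPU libraries. Because the rule used summit positions, the counts, the distances and the difference between groups at these loci are descriptions and were not tested.

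The libraries are ATAC-seq, in which a transposase cuts accessible DNA, from H1 cells, an established line of human pluripotent stem cells grown in mTeSR1 on Matrigel. Cells carried one of 2 short hairpin RNAs against HNRNPU (shHNRNPU #1 and shHNRNPU #2) or a hairpin against luciferase (shLUC) as the control, with 2 libraries per hairpin made from nuclei of 50000 cells each. The treatment protocol describes virus packaged in 293T cells and puromycin selection, whereas the series' design text speaks of transfection. The labels do not say that repeats came from separate cultures, so p-values measure only the spread between these samples, which may be technical. Summits give no level of HNRNPU, and the knockdown was not checked here.

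HNRNPU, also called SAF-A, is an abundant nuclear protein that binds RNA and scaffold attachment regions of DNA and is known as a component of the nuclear matrix. An ATAC-seq summit is the base of strongest signal in a peak, and peaks in these cells mark promoters, enhancers and other stretches where nucleosomes are depleted. Active promoters usually carry a nucleosome-depleted stretch at the transcription start, flanked by positioned nucleosomes. A score of a summit is the -log10 of the q-value of its peak, as given per library by the authors.

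The lists held 52168 to 63519 summits per library. Summits were listed within 2000 bp of an end of all 11 pluripotency markers found in the gene table, SOX2 and NANOG among them, in 6 of 6 libraries. Of 10 markers of other cell types, 6 (GATA6, SOX17, TBXT, PAX6, CDX2 and COL1A1) had one in 6 of 6 libraries, COL3A1 in 2, and HBG1, ALB and PTPRC in none. A summit near a gene is no measure of its expression.

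The promoters of 7 genes show where these summits fell in sequence. They are the 4 shHNRNPU-side and 2 shLUC-side loci of highest rank whose centre lay inside a RefSeq promoter of a protein-coding gene, plus KNOP1, chosen after its values were seen because its window holds a summit of either group. Rank was set by the lowest score percentile over the libraries that hold the locus. Each window runs 5′ to 3′ along the gene from 250 bases before its start to 50 bases from it, in build GRCh38, and the capitals mark 21 bases around the locus centre, which is the summit of 1 library, or fewer where the window ends.
EMD: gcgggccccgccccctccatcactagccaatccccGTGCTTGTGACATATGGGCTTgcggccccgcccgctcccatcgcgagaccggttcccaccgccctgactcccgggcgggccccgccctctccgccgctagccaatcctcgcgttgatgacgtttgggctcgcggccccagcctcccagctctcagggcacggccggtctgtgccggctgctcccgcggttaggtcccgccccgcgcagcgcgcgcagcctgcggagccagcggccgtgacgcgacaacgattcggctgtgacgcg
RABEP2: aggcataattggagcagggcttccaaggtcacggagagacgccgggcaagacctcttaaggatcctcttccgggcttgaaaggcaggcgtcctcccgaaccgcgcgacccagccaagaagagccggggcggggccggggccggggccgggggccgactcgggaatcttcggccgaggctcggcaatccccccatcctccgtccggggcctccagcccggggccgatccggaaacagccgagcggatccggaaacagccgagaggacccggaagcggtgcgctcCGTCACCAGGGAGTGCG
SUGCT: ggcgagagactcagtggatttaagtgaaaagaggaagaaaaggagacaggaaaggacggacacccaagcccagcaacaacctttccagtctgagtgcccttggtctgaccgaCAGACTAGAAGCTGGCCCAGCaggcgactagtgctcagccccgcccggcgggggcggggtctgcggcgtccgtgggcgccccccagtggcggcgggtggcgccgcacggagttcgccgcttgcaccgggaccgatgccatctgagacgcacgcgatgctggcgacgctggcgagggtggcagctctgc
NQO2: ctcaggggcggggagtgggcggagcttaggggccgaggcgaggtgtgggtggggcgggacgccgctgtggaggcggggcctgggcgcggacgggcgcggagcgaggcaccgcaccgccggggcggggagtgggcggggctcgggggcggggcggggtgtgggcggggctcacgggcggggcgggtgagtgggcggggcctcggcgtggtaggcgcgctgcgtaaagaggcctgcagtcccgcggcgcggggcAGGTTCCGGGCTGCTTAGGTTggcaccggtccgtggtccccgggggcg
KCNN2: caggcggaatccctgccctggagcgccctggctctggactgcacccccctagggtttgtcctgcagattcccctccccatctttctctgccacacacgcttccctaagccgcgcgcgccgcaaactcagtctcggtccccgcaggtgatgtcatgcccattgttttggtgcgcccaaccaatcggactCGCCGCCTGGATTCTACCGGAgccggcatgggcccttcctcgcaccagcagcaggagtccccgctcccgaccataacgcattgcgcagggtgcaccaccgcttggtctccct
NPC1: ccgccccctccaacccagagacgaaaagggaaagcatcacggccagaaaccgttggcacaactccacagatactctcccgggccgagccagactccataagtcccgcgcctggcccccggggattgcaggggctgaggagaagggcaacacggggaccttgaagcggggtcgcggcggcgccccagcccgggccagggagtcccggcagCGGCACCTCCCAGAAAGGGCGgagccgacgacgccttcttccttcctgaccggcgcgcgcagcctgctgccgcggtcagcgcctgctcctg
KNOP1: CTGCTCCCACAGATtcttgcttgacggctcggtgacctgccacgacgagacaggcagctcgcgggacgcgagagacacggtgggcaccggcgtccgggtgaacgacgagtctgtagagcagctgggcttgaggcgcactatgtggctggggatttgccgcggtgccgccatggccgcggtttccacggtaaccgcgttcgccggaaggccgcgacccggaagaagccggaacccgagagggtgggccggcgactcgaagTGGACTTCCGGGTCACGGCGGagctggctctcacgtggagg

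The windows lie at chrX:154379045-154379344 (plus strand) for EMD, chr16:28925189-28925488 (minus strand) for RABEP2 and chr7:40134755-40135054 (plus strand) for SUGCT. Those of NQO2 and KCNN2 lie at chr6:2999644-2999943 (plus strand) and chr5:114361820-114362119 (plus strand). Those of NPC1 and KNOP1 lie at chr18:23586457-23586756 (minus strand) and chr16:19718178-19718477 (minus strand). In KNOP1, which encodes a lysine-rich nucleolar protein and shares its promoter region with IQCK, the first capitals mark the shHNRNPU centre, 247 bases before the start, and the later ones the nearest shLUC summit, 19 bases after it. In NQO2 the shHNRNPU centre lay 12 bases after the start and the shLUC centre 281 bases before it, just outside the window. In NPC1 and KCNN2 the shLUC centres lay 31 and 52 bases before the start, and the shHNRNPU centres 365 and 939 bases before it, both outside the windows.

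Reciprocal pairs are the clearest form of a shifted summit. In 49 cases a shLUC-side locus and a shHNRNPU-side locus lay in each other's shift window, so that all 6 libraries had a summit and the groups held different positions. The median distance between the centres of a pair was 446 bp (range 267 to 887), and 31 of the 49 lay within 500 bp. The gap between the closest summits of the 2 groups ranged upwards from 95 bp, with a median of 327 bp. Of the 49 pairs, 30 (61.2%) had their shLUC centre within 2000 bp of a protein-coding gene end. This share was 20.8% over all loci, 36.8% over all shifted loci and 40.7% over loci held by all 6 libraries. It was 36.3% over other loci with a summit of any library in the shift window, and the difference was not tested.

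**Figure D1:**
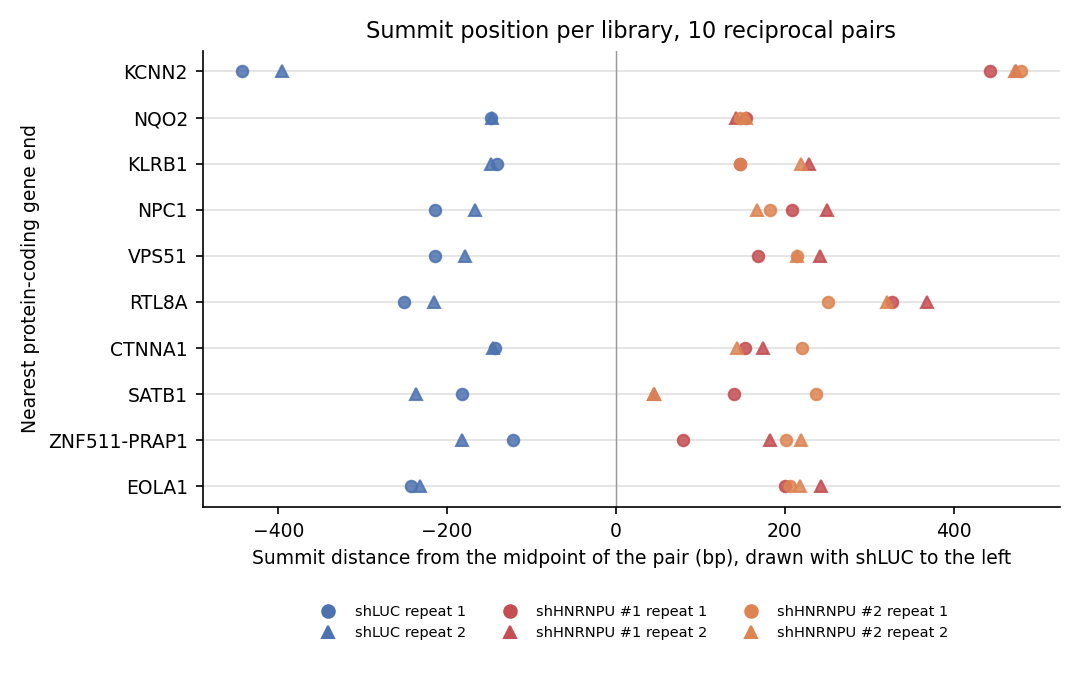
Position of the summit in each library at 10 of the 12 reciprocal pairs of highest rank, as distance in bp from the midpoint of the pair (x axis), each row named by the nearest protein-coding gene end and turned so that shLUC is on the left. Points are single libraries. The pair in KCNN2 is the widest, with centres 887 bp apart, and in every row both shLUC points lie left of all 4 shHNRNPU points, which the choice of pairs fixes.

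The widest pair lay in KCNN2, which encodes a calcium-activated potassium channel of small conductance. Its shLUC centre was at position 114362018 of chromosome 5, 52 bases before an internal start of the gene and 134478 bp from the end of the gene model. The shLUC summits lay at 0 and -48 bp from this centre in repeats 1 and 2, with scores of 29.4 and 21.0. The shHNRNPU #1 summits lay at -887 and -917 bp with scores of 57.7 and 34.1, and the shHNRNPU #2 summits at -923 and -916 bp with scores of 29.7 and 29.4. Each group thus held its summit within 48 bp, and no library had a second summit in the shift window of its own group's centre.

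At NQO2, which encodes a quinone reductase, the shLUC summits lay at -2 and 0 bp from the centre (position 2999613 of chromosome 6), with scores of 17.1 and 22.2. The shHNRNPU #1 summits lay at 301 and 289 bp and the shHNRNPU #2 summits at 293 and 301 bp, with scores of 28.0, 35.7, 34.0 and 28.9. All 4 shHNRNPU scores were higher than both shLUC scores, and the position differed by at most 12 bp within either group.

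NPC1 encodes a protein that carries cholesterol out of lysosomes, and both centres of its pair lay before the start. Around the shLUC centre (position 23586537 of chromosome 18), the shLUC summits lay at -47 and 0 bp with scores of 14.7 and 16.4. The shHNRNPU #1 summits lay at 376 and 417 bp with scores of 17.4 and 15.5, and the shHNRNPU #2 summits at 350 and 334 bp with scores of 17.5 and 27.3. The scores of the groups overlapped, while the positions did not.

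VPS51, a subunit of complexes that tether vesicles at the Golgi and at endosomes, had its shHNRNPU centre 15 bases after the start. Its shHNRNPU #1 summits lay at 46 and -28 bp from that centre and its shHNRNPU #2 summits both at 0 bp, with scores of 32.5, 25.4, 28.6 and 24.9. Its shLUC summits lay at 428 and 393 bp, inside the gene, with scores of 18.8 and 13.7. At CTNNA1, which encodes the adhesion protein alpha-catenin, the shHNRNPU summits were the ones outside the gene. Here the shHNRNPU centre lay 229 bases before the start and the shLUC centre 57 bases after it, with shHNRNPU scores of 28.9, 28.7, 21.6 and 30.7 against shLUC scores of 15.02 and 12.04.

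Other pairs of highest rank lay at varied places. The pair nearest to RTL8A, a gene derived from a retrotransposon, had its shLUC centre 473 bases after the start and its shHNRNPU centre 29 bases before it. The pair at ZNF511 and TUBGCP2, the second encoding a subunit of the gamma-tubulin complex, had centres 364 bp apart, and the pair near EOLA1 had centres 485 bp apart. The pair nearest to SATB1, a chromatin organiser, had its shLUC centre 71148 bp from the gene, inside SATB1-AS1. The pair nearest to KLRB1 lay inside the pseudogene DDX12P. RTL8A, EOLA1 and DDX12P have close copies in the genome, so the origin of reads there is uncertain.

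Among single members, the shHNRNPU-side locus of highest rank lay 205 bases before the start of EMD, which encodes emerin, a protein of the inner nuclear membrane. Its shHNRNPU #1 summits lay at -72 and 0 bp from position 154379090 of chromosome X with scores of 37.5 and 42.0. Its shHNRNPU #2 summits lay at 57 and -24 bp with scores of 33.1 and 38.5. The shLUC summits lay at -266 and -337 bp, with scores of 32.6 and 25.8, so both were farther from the start than every shHNRNPU summit.

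The shLUC-side locus of highest rank lay 12134 bp from TMPO, which encodes lamina-associated polypeptide 2, inside the non-coding gene LINC02453. Its shLUC summits lay at 0 and 81 bp from position 98503439 of chromosome 12 with scores of 34.3 and 30.8. The shHNRNPU #1 summits lay at 620 and 633 bp with scores of 25.5 and 29.2, and the shHNRNPU #2 summits at 418 and 708 bp with scores of 25.4 and 25.3. All 4 shHNRNPU summits lay on the same side of the shLUC summits.

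A locus 511 bases before the start of CHD1, an ATP-dependent chromatin remodeller, was shLUC-side, with shLUC scores of 27.6 and 19.6 at 0 and 85 bp from its centre. The shHNRNPU summits lay at -290, -528, -290 and -545 bp with scores of 41.0, 34.4, 31.3 and 30.4. Those at -290 bp, nearest to the locus centre, were 221 bases before the start. Those at -528 and -545 bp, from repeat 2 of either hairpin, lay just past the start. At FAM20B, a kinase gene of glycosaminoglycan synthesis, and at NREP, a gene named for neuronal regeneration, the shHNRNPU summit nearest to the locus was also nearer to the start than the shLUC centre, at 102 against 408 and 151 against 456 bases before it. At PANK4, of the pantothenate kinase family, it lay 58 and the shLUC centre 316 bases after the start.

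In some members both groups shared a summit and one group had an additional one. At HMGN1, which encodes a nucleosome-binding protein, the shLUC summits, with their centre 62 bases after the start, scored 23.3 and 17.1, and both shLUC libraries also held a second summit in the shift window. The shHNRNPU summits lay at 412, 370, 396 and 361 bp and scored 49.5, 47.1, 29.5 and 50.7, and all 6 libraries had a summit there. The same held inside STK3, a kinase gene of the Hippo pathway, where the shLUC-side summits scored 16.4 and 21.0 and the summits at 398 to 428 bp in the shHNRNPU libraries scored 43.8 to 72.1.

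The remaining shHNRNPU-side loci of highest rank lay mostly at starts. Their positions are given from the locus centre, on the coordinates of the chromosome. At RABEP2, which encodes an endosomal Rab effector and is read from the minus strand, the centre lay 43 bases after the start, with shHNRNPU summits at 0, -119, 1 and 5 bp and shLUC summits at -311 and -313 bp. At TMEM17, of the ciliary transition zone and also on the minus strand, the centre lay 23 bases after the start. Its shHNRNPU summits were spread over 0, -213, -168 and -44 bp, and the closest came within 50 bp of the shLUC summits at -263 and -268 bp. STK11IP, which encodes a partner of the kinase LKB1, had its centre 54 bases after the start and shHNRNPU summits at 0, 229, 123 and -30 bp, the closest within 28 bp of the shLUC summits at 257 and 279 bp.

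At SUGCT, a mitochondrial CoA-transferase gene, the centre lay 128 bases before the start, with shHNRNPU summits at 0, 20, -137 and -4 bp and shLUC summits at -311 and -348 bp. At SF3A2, which encodes a subunit of the splicing factor SF3a, it lay 189 bases before the start, but only 1 shHNRNPU summit was there. The shHNRNPU summits lay at -174, -187, 0 and -178 bp and the shLUC summits at -258 and -276 bp, with a gap of 71 bp between the groups. At TMEM17, STK11IP and SF3A2 the shift from the centre of 1 library was thus several times the gap between the groups. The locus near MRPS18A, of the mitochondrial ribosome, lay 14981 bp away.

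Over all 857 loci the shift, measured from a centre to the nearest summit of the other group, had a median of 358 bp and reached up to 986 bp. It was 380 bp on the shLUC side and 335.5 bp on the shHNRNPU side. Loci became fewer with distance, with 325, 102 and 70 shLUC-side loci at up to 500 bp, from there to 750 bp and from there to 1000 bp, and 266, 53 and 41 on the shHNRNPU side. The limits of the rule fell inside a falling distribution. Shifts in the first 10 bp beyond 250 bp were held by 33 and 32 loci of the shLUC and shHNRNPU sides, and 30 and 43 loci held by one group had the nearest summit of the other in the last 10 bp before it. At the outer limit 0 and 0 loci lay in the last 10 bp up to 1000 bp, and 1 and 2 loci in the 10 bp after it.

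A shift from a locus centre can be longer than the gap between the groups. The gap between the closest summits of the groups had a median of 347 bp on the shLUC side and 233.5 bp on the shHNRNPU side, and it was under 100 bp at 43 and 83 loci. The summits of the group holding the locus were themselves spread over a median of 69 bp across 2 libraries and 177.5 bp across 4. Spreads over different numbers of libraries are not comparable between sides.

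Not every member was a summit that moved as a whole. At 290 of 497 shLUC-side loci (58.4%) and 227 of 360 shHNRNPU-side loci (63.1%), no library of the group holding the locus had a second summit in the shift window. At 78 and 127 of these, every library of the other group had a summit in that window. At 102 shLUC-side and 20 shHNRNPU-side loci, all 6 libraries had a summit in that window, though not always the same one. The other-group summit nearest to the centre was matched within 250 bp in all 6 libraries at 72 and 21 loci. At those the locus itself was an additional summit. Only 1 library of the other group had a summit in the shift window at 164 shLUC-side and 160 shHNRNPU-side loci.

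**Figure D2:**
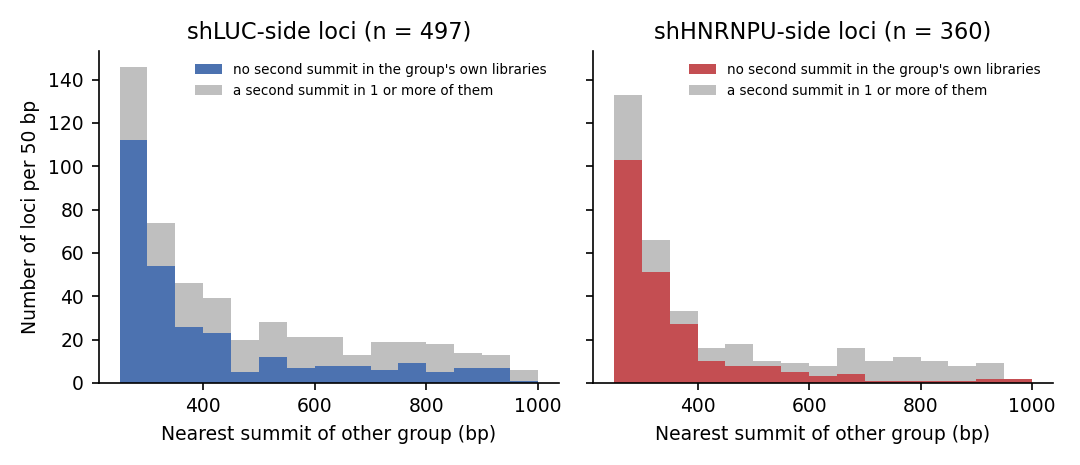
Number of loci (y axis, bins of 50 bp) by distance in bp from the locus centre to the nearest summit of the other group (x axis), for 497 shLUC-side loci on the left and 360 shHNRNPU-side loci on the right. Coloured parts are the 290 and 227 loci where no library of the group holding the locus had a second summit in the shift window, grey parts the others, and both distributions fall with distance.

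The counts of the shifted summit were similar between hairpins and repeats. Of the shLUC-side loci, 331 and 360 had a summit in the shift window in the shHNRNPU #1 libraries and 335 and 301 in the shHNRNPU #2 libraries, against 176 and 159 in the shLUC libraries. Of the shHNRNPU-side loci, 279 and 281 had one in the shLUC libraries and 71 to 74 in each shHNRNPU library. The rule asks for a summit in this window from the other group and not from the group holding the locus, so it favours the direction of these differences.

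Scores at the members were low. The lowest score percentile over the libraries holding a locus had a median of 23.1 on the shLUC side and 27.2 on the shHNRNPU side. It was 24.2 at 1875 loci held by both shLUC libraries with no shHNRNPU summit within 1000 bp, 15.2 at 724 loci held by all shHNRNPU libraries with no shLUC summit within 1000 bp, and 60.8 at the 25519 loci held by all 6 libraries. The part of low scores in the shifts was not tested. Read depth is unknown, and a missing summit means only that none was called.

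Shifted loci lay near gene ends as often as other loci that had a summit nearby. Of the shLUC-side loci 34.6% (95% Wilson interval 30.6 to 38.9, counting error only) and of the shHNRNPU-side loci 39.7% (34.8 to 44.9) lay within 2000 bp of a protein-coding gene end. The share was 36.3% (35.8 to 36.8) over 35658 other loci with a summit of any library in the same window, a set chosen after the other shares had been seen. It was 40.7% over loci held by all 6 libraries and 20.8% over all loci. Loci held by one group alone with no summit of the other group within 1000 bp were near gene ends in 4.11% (shLUC) and 14.0% (shHNRNPU) of cases.

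**Figure D3:**
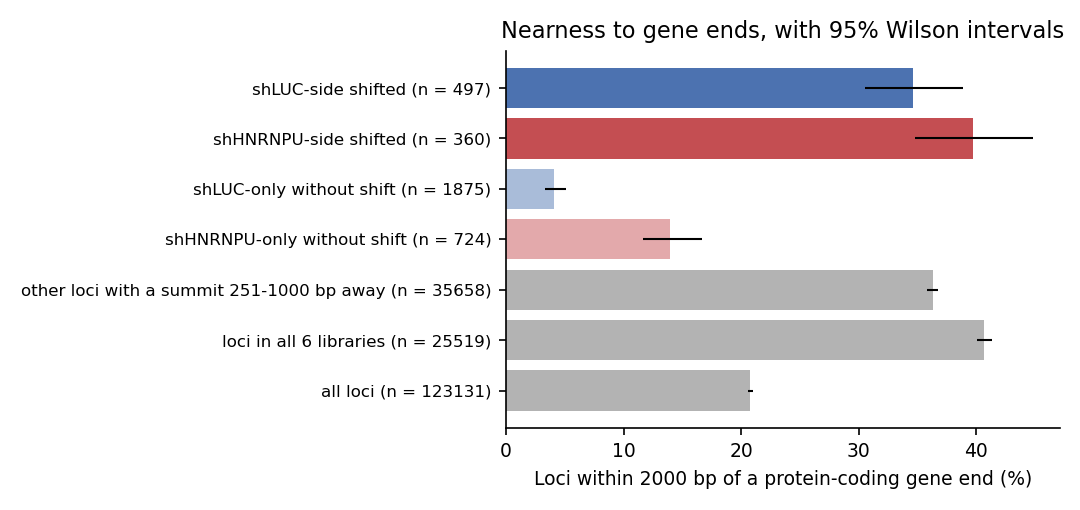
Share of loci within 2000 bp of a protein-coding gene end (x axis, %) for the 2 sides of shifted loci and 5 other sets of loci, with 95% Wilson intervals that cover counting error only. Both bars of shifted loci, at 34.6% and 39.7%, sit close to the 36.3% of other loci with a nearby summit and above the 4.11% and 14.0% of group-only loci without a shift.

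Loci with a second summit were compared with those without. On the shLUC side, 51.7% (44.9 to 58.4) of the loci with a second summit in a shLUC library were near a gene end, against 22.4% (18.0 to 27.6) of those without. On the shHNRNPU side the shares were 45.9% (37.6 to 54.3) and 36.1% (30.2 to 42.6), whose intervals overlap. The 36.3% of other loci with a summit in the same window lay between the shLUC-side shares and outside both their intervals. It was close to the share of shHNRNPU-side loci without a second summit. Of all shifted loci, 229 (26.7%) lay inside a gene more than 2000 bp from its ends and 313 (36.5%) outside genes and as far from any gene end. These shares were 37.8% and 41.5% over all loci, and 31.1% and 32.6% over the other loci with a summit in the same window.

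Start sites come from a promoter table that holds no starts on chromosome 8, which leaves 818 of the members. Of these, 244 (29.8%) lay within 1000 bp of a protein-coding start, and 113 (13.8%) within 250 bp, against 27.5% and 14.3% of the other loci with a summit in the same window. These shares were 15.2% and 10.3% over all loci and 35.0% and 30.9% over loci held by all 6 libraries. Measured from the start nearest to the member, the shHNRNPU summit was the closer one at 132 of 244 loci (54.1%) and lay downstream of the shLUC summit at 110 (45.1%). The start fell between the summits at 121 of 244 (49.6%). Of the reciprocal pairs, 22 had their shLUC centre within 1000 bp of a start, so some shifts are counted from either end, and these counts were not tested. On the shLUC side the median distance from the start was 340 bp for shLUC summits and 205.5 bp for shHNRNPU summits, and on the shHNRNPU side 249 and 237.5 bp. Where the group holding the locus had no second summit in the shift window, these medians lay closer together. They were 281 and 221 bp at 47 shLUC-side loci and 231 and 214 bp at 63 shHNRNPU-side loci. At these 110 loci the shHNRNPU summit was closer to the start at 57 (51.8%) and downstream at 52 (47.3%).

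**Figure D4:**
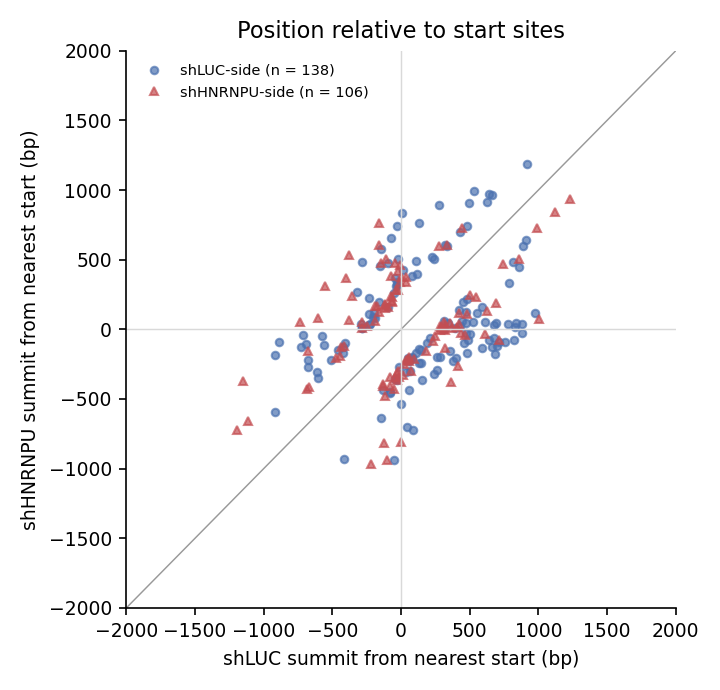
Position of the shHNRNPU summit (y axis, bp) against that of the shLUC summit (x axis, bp) relative to the nearest protein-coding start, negative before the start, for the 138 shLUC-side and 106 shHNRNPU-side loci within 1000 bp of one. The diagonal marks equal positions and is empty by the rule, points lie on both sides of it, and 110 of 244 lie above it.

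Within promoters, 102 windows of 300 bases held the centre of a shifted locus, 47 on the shLUC side and 55 on the shHNRNPU side, over 94 loci. Motifs were searched on both strands and counted once per window. GGGCGG, the box bound by Sp factors, was in 68.6% of these windows (59.1 to 76.8), against 45.0% of all 35116 promoters and 76.9% of the 9379 promoters with a locus held by all 6 libraries. CCAAT was in 20.6% (13.9 to 29.4), against 34.6% and 41.7%. TATAAA was in 1.96%, against 11.5% and 3.77%.

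CCGGAAG, the core of many ETS factor sites, was in 10 of 55 shHNRNPU-side windows (18.2%, 10.2 to 30.3) and in 0 of 47 shLUC-side windows, which allows a share of up to 6.38%. Its share was 10.3% over all promoters and 22.6% over promoters with a locus held by all 6 libraries. AAGATGGC, a form of the YY1 site, was in 4 of 47 shLUC-side windows (8.51%, 3.36 to 19.9) and in 0 of 55 shHNRNPU-side windows, which allows up to 5.45%, against 2.89% of all promoters and 5.52% of promoters with a locus held by all 6 libraries. The median number of CpG was 25 on the shLUC side and 34 on the shHNRNPU side, against 14 over all promoters and 28 over those with a locus held by all 6. In the windows printed above, NQO2 holds GGGCGG 11 times and EMD 6 times, KNOP1 holds CCGGAAG 3 times and RABEP2 2 times, and KCNN2 holds a CCAAT centred 19 bases before the marked summit.

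By gene, 441 shifted loci lay inside a gene, in 430 protein-coding genes, of which 32 held 2 and none held 3 or more. Among the 32 were NFKB1, which encodes a subunit of NF-kappaB, KLF7 and USF2, which encode transcription factors, and ZDBF2, an imprinted gene, each with 1 locus on either side. In each of these genes the 2 loci were the ends of 1 reciprocal pair, so 1 shift was counted from either end. Overlapping genes that share a pair, such as ZNF511 and TUBGCP2, were counted apart. BMP7, which encodes a growth factor, held 2 shHNRNPU-side loci. At ZDBF2 the shLUC summits scored 9.73 and 11.2 and the shHNRNPU summits, 371 bp away by centre, scored 27.1, 18.4, 15.2 and 14.2. These 5 genes were chosen after their values were seen.

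Gene lists held few shifted loci. None lay at or in the 19 pluripotency genes found in the table (0 of 91 loci), the 12 lineage regulators (0 of 71) or the 17 HNRNP and splicing genes (0 of 46), against 6.96 per 1000 over all loci, so that fewer than 1 would be counted in each at that rate. Among the genes of nuclear organisation and HNRNPU partners, EMD held the locus described above. Of 14 remodeller genes CHD1 alone did, and of 17 synapse and adhesion genes KCNN2 held 2 and DLG2 and ROBO2 held 1 each, 4 of 726 loci. The DLG2 locus, in a gene of postsynaptic scaffolding, scored 5.53, 8.38, 6.40 and 3.27 in the shHNRNPU libraries, and the locus of the guidance receptor gene ROBO2 scored 1.99 and 2.08 in shLUC, near the lowest scores listed. Per chromosome, from 1 to 22 and X, shifted loci ranged from 4.95 (chromosome 3) to 10.2 (chromosome 18) per 1000 loci.

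Libraries that took no part in the choice were read at loci chosen by the same rule. When 1 library of each group was held out, which was done in all 8 ways and was added after results with 1 library held out had been seen, the rule gave 2504 to 2641 shLUC-side loci. The held-out shLUC library had a summit within 250 bp of 24.3% to 26.0% of them and the held-out shHNRNPU library of 17.6% to 23.6%. The difference averaged -3.28 points and was below 0 in 8 of 8. On the shHNRNPU side the rule gave 1129 to 1273 loci. The held-out shHNRNPU library had a summit at 68.7% to 77.2% of them and the held-out shLUC library at 60.9% to 66.2%, with a mean difference of 9.09 points, above 0 in 8 of 8. The 8 choices share libraries, so these are descriptions.

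**Figure D5:**
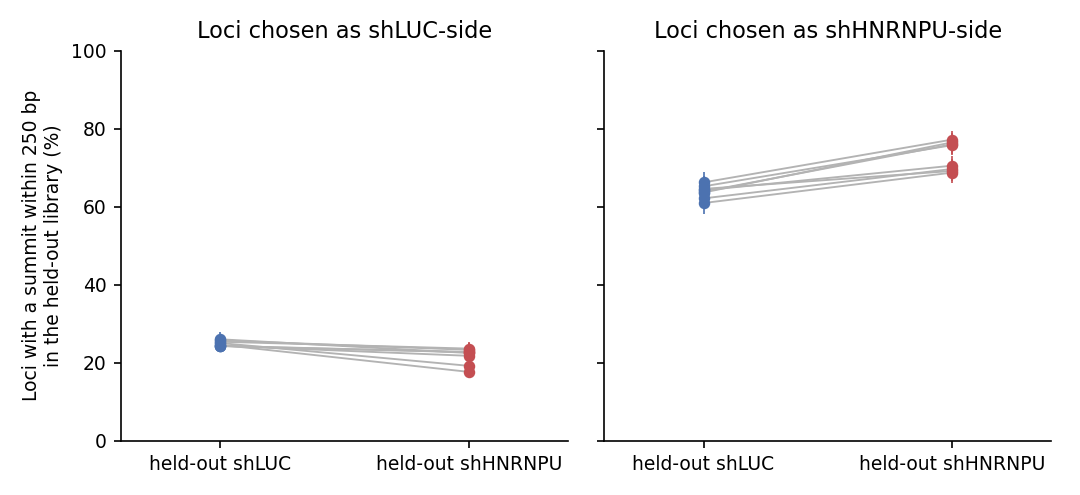
Share of loci (y axis, %) with a summit within 250 bp in a held-out shLUC and a held-out shHNRNPU library, for shLUC-side loci (left) and shHNRNPU-side loci (right) chosen on the other 4 libraries. Lines join the values of 1 of 8 choices and bars are 95% Wilson intervals, and the held-out library of the group holding the loci is higher in 8 of 8 choices on either side.

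The position listed in the remaining libraries of one group was therefore also listed in an unused library of the other group at 17.6% to 23.6% (shLUC side) and 60.9% to 66.2% (shHNRNPU side) of such loci. In these choices only 1 shLUC library had to hold a shLUC-side locus or lack a shHNRNPU-side one. These sets are therefore larger than, and unlike, the members described above. With 1 library held out alone, an unused shLUC library had a summit at 21.1% and 20.7% of the shLUC-side loci chosen without it. An unused shHNRNPU library had one at 32.9% to 39.4% of the shLUC-side loci chosen without it, a higher share. At shHNRNPU-side loci the shares were 56.0% to 70.4% for an unused shHNRNPU library and 68.1% and 69.9% for an unused shLUC library. The loci differ with the library left out, so these shares do not compare the groups at the same loci.

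Outside the window of the rule, the number of summits more than 1000 and up to 5000 bp from a member was 0.260 and 0.259 per locus in shHNRNPU #1, 0.228 and 0.219 in shHNRNPU #2, and 0.209 and 0.230 in shLUC. The groups overlapped. It averaged 0.242 ± 0.0212 (SD, n = 4) over the shHNRNPU libraries against 0.219 ± 0.0149 (SD, n = 2) over the shLUC libraries (two-sided exact permutation test over 15 choices of control libraries, p = 0.4). At shHNRNPU-side loci the values were 0.300, 0.317, 0.272 and 0.261 with shHNRNPU against 0.242 and 0.258 with shLUC, without overlap (exact permutation test, p = 0.133, the smallest this design allows). These loci were kept for summits in all 4 shHNRNPU libraries and in no shLUC library. Summit calls nearby may follow that choice, so this comparison is not independent of it. The groups did not overlap at loci held by all 6 libraries either, at 0.177 to 0.208 against 0.174 to 0.176. They overlapped at shLUC-side loci, at 0.189 to 0.231 against 0.185 to 0.209 (exact permutation test, p = 0.533), and over all loci, at 0.179 to 0.214 against 0.185 to 0.188 (exact permutation test, p = 0.533).

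Loci held by all 6 libraries, none of which is a member, give a measure of displacement that the rule did not use. There, the median distance between the summits of a shHNRNPU and a shLUC library was 40.5 bp on average over 8 pairs of libraries (range 36 to 44). It was 41.0 bp over 6 pairs of shHNRNPU libraries (39 to 42) and 35.0 bp for the shLUC pair. The mean over pairs of different groups exceeded the mean over pairs of one group by 0.357 bp (two-sided exact permutation test over 15 choices, p = 0.533). At these 25519 loci every library has a summit within 250 bp of the centre, so shifts of the kind kept by the rule cannot appear. The smallest p this exact permutation test allows is 0.133, so it could not have called a displacement between groups. The mean over pairs of one group also pools 6 shHNRNPU pairs with the shLUC pair, which differ. The share of a library's summits with another of its own summits within 1000 bp was 7.47% to 7.96% with shHNRNPU and 7.87% and 8.05% with shLUC (exact permutation test, p = 0.267).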

How the data were processed

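ATAC-seq summits from 6 libraries of H1 cells were analysed, grouped by the sample titles. The article supplied with the series describes other libraries and served for style only. The authors deposited 1 list per library of summits 1 bp wide with the -log10 q-value of the peak, called per library and not normalized between libraries. The submitters' processing notes name cutadapt, Bowtie2, SAMtools, MACS2, deepTools and hg38, and no versions are given in the sources used here. The files give no read depth. Intervals therefore cover counting error only, and a missing summit has no stated limit of detection.

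The members and gene lists were chosen with earlier results of these data known. The 12 loci per side and the 12 reciprocal pairs with the highest minimum of the score percentile were named, with every member at or in a gene of the lists. A few of these loci are not reported here. Gene ends came from a RefSeq table of GRCh38.p14 without strand (20037 protein-coding genes), and start sites and sequences from a RefSeq table of 35116 promoters of GRCh38, in which 15843 of those genes have a start. Means per library were compared by exact permutation, with every one of 15 pairs of libraries taken as control, doubling the smaller tail, and a smallest p of 0.133, so no difference could pass 0.05. The rule was tested on simulated summits and returned 600 of 600 shifted and 4400 of 4400 unshifted sites. The simulated sites lay far apart, with little jitter and with unshifted sites called in every library. The simulation therefore checks the code and says nothing of false shifts in the real lists. Alternatives were lists cut to one length, scores of 5 or more, autosomes, match distances of 100 and 500 bp, outer limits of 500 and 2000 bp, centres by raw score, a gene-end distance of 500 bp, a flank to 10000 bp, mean in place of median distances, leaving out each library, and permuting within repeat numbers. Python 3.11.15 was used with matplotlib 3.10.9, scipy 1.17.1, pandas 2.3.3, statsmodels 0.14.6 and numpy 2.4.6.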

Additional observations from a re-analysis of the deposited data

How the results depend on the processing

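The number of members depended on the match distance and the libraries. A match distance of 100 bp gave 1582 shLUC-side and 798 shHNRNPU-side loci, 152 pairs, a median shift of 138 bp and 29.9% near gene ends, and one of 500 bp gave 226, 170, 6, 678 bp and 42.9%. An outer limit of 500 bp gave 325 shLUC-side loci, 31 pairs and a median of 305 bp, and one of 2000 bp a median of 436.5 bp. A score of at least 5 gave 206 and 204 loci with 49.3% near gene ends, lists of one size a median of 341 bp and 41.5%, and counting within 500 bp of gene ends gave 20.4%. Leaving out 1 library gave 694 to 2240 shLUC-side loci, 523 to 874 shHNRNPU-side loci, 79 to 292 pairs, medians of 355 to 419.5 bp, 37.1% to 39.5% near gene ends and flank differences of 0.0103 to 0.0338. The counts moved most without shLUC repeat 1 (2198 shLUC-side and 857 shHNRNPU-side loci, 280 pairs) or repeat 2 (2240, 874 and 292), since then only 1 shLUC library has to hold or lack a locus. The displacement at loci held by all 6 libraries ranged from -0.333 to 2.17 bp, turned below 0 without shLUC repeat 1 (-0.25) or 2 (-0.333) and was -0.0357 bp at a match distance of 100 bp, and no p was under 0.05 in any of these. Repeat numbers did not pair the samples, with correlations of -0.0442 to 0.000868 between deviations, and under the replicate block the flank difference of 0.0222 had an exact permutation p of 0.444 and the displacement of 0.357 bp one of 0.667. Held-out differences, with a score of at least 5 or lists of one size, were -4.70 and -3.36 points on the shLUC side and 11.3 and 10.6 on the shHNRNPU side.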
